A study of Mus musculus with 2 samples.

Results

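Ccr7-positive Fscn1-low cDC1 cells are XCR1-sorted lung dendritic cells in which the transcript of the migration receptor Ccr7 was counted while that of the actin-bundling protein fascin, Fscn1, was absent or nearly so. Type 1 conventional dendritic cells (cDC1) take up dying cells and cross-present their antigens to CD8 T cells. On maturation, including the maturation that happens without infection, they gain CCR7, which reads the lymph node chemokines CCL19 and CCL21, turn down phagocytosis, and carry antigen to the draining node. Fascin is a late and abundant product of that programme, and RelB, partner of the Nfkb2 product p52 in the non-canonical NF-kB pathway, is among the transcription factors required for dendritic cell maturation.

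The study sorted conventional dendritic cells from the lungs of C57BL/6 mice aged 8 to 10 weeks at steady state, with no treatment or altered allele named in the labels. Lungs were digested with dispase, and XCR1-positive cells (cDC1) or CD172a-positive cells (cDC2) went into 1 droplet library each. How many mice each library pools is not stated in the labels. All groups compared here are cells of the 1 cDC1 library, so they share sort, library and run. Whether they draw alike on the same animals is not known. There is no replicate: no test between groups was possible, every interval covers counting error only, and the spread shown is over cells.

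The cDC1 library held 2939 of the 5984 deposited barcodes. Limits of at least 500 genes, at least 1000 UMIs (unique molecular identifiers, 1 per captured transcript) and at most 10% mitochondrial UMIs left 2574. Of those, 202 had no UMI of Xcr1 or Clec9a and a further 362 carried 4 or more UMIs of 6 proliferation genes, which left 2010. The Ccr7-positive Fscn1-low cells, with at least 2 Ccr7 and under 3 Fscn1 UMIs, numbered 144, or 7.16% of the 2010 (exact 95% binomial interval 6.08 to 8.38%). The cells were chosen by their measured counts of these genes, and were set against 1674 resting cells with no UMI of either gene and 40 mature cells with 3 or more Fscn1 UMIs. A further 112 cells with exactly 1 Ccr7 UMI and 40 with 1 or 2 Fscn1 UMIs and no Ccr7 belong to no group. Ccr7, Fscn1, Xcr1, Clec9a and the proliferation genes chose the groups, so their values are descriptions and they are left out of every count below.

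The choice was clean on the Fscn1 side and graded on the Ccr7 side. Of the 144 cells, 138 had no Fscn1 UMI, 5 had 1 and 1 had 2, and among all kept cells none had 3, 2 had 4 and 1 had 5. Ccr7 ran from 2 to 81 UMIs with a median of 6, and 21 cells sat at exactly 2. Every mature cell had 9 or more Ccr7 UMIs (median 41), so the 2 ranges overlapped. To show how the cells differ among themselves they were divided by Ccr7 into 45 cells with 2 to 3 UMIs, 40 with 4 to 7 and 59 with 8 or more. Depth was alike, with median totals of 12427.5 UMIs in resting, 13478 in Ccr7-positive Fscn1-low and 13795 in mature cells. Within the Ccr7 bins the median totals were 13500, 12652 and 14596 UMIs, so cells of the top bin were the deepest; what part of its pattern depth makes was not tested beyond the thinned counts given below.

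**Figure D1:**
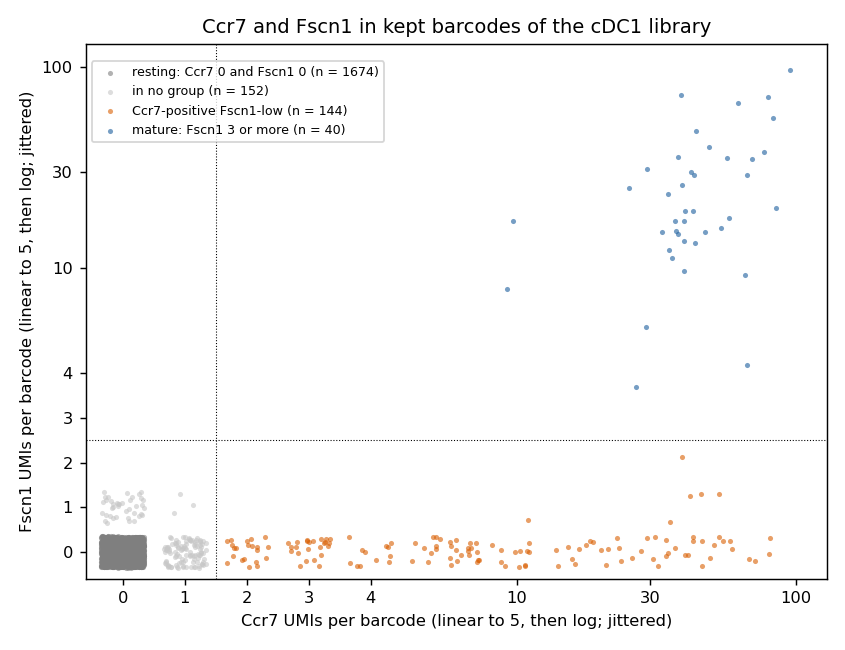
Ccr7 (x axis) and Fscn1 (y axis) UMIs of each of the 2010 kept barcodes, both linear to 5 and logarithmic above, jittered, with dotted lines at the limits of the rule. The 144 Ccr7-positive Fscn1-low cells lie along the bottom, 138 of them at an Fscn1 count of 0, while the 40 mature cells have 9 or more Ccr7 UMIs and 4 or more Fscn1 UMIs.

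Levels below are CPM: the UMIs of a gene summed over the cells of a group, per 1000000 UMIs of that group. The group totals of 21197240 (resting), 2095854 (Ccr7-positive Fscn1-low) and 575434 (mature) UMIs set the precision. A gene counted as measured at 20 CPM or more in either group of a comparison, and as called when the groups were 2-fold or more apart, a rule of size and not a test. Fold values carry exact 95% intervals.

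The genes that define the groups, and Relb, are given first. Ccr7 (chr11:99144196-99155077, minus strand, mm10) stood at 0 CPM in resting cells by the rule, at 185, 407 and 1927 CPM in the 3 Ccr7 bins and at 3283 CPM in mature cells. Fscn1 (chr5:142960343-142973185, plus strand) reached 3.34 CPM in the Ccr7-positive Fscn1-low cells and 1875 CPM in mature cells. The sort receptor Xcr1 was at 268, 245 and 134 CPM in resting, Ccr7-positive Fscn1-low and mature cells, and Clec9a, a receptor for the exposed actin of dead cells, at 149.7, 96.9 and 64.3 CPM. Only 1 UMI of Xcr1 and Clec9a together supported cDC1 identity in 25 of the 144 cells (17.4%), against 154 of 1674 resting (9.20%) and 15 of 40 mature cells (37.5%). Relb (chr7:19606217-19629438, minus strand), which the rule did not use, was at 35.3 CPM in resting, 89.7 in Ccr7-positive Fscn1-low and 490.1 CPM in mature cells. The Ccr7-positive Fscn1-low level was 2.54-fold (2.15 to 2.98) above resting and 5.46-fold (4.53 to 6.61) below mature. By bin it was at 42.1, 45.2 and 146 CPM, so the high level sat in the cells with 8 or more Ccr7 UMIs. With 3 or more UMIs of Xcr1 and Clec9a required of every group, the ratio to resting was below 2-fold, at 0.94 on the log2 scale against 1.34. Ccr7-positive Fscn1-low cells with fewer than 8 Ccr7 UMIs thus carried Ccr7 with Relb at most slightly above resting.

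Across the 4510 genes measured against resting cells, 208 were higher by 2-fold in the Ccr7-positive Fscn1-low cells (4.61%) and 145 lower (3.22%), with a median log2 ratio of -0.06. Scaling by median-ratio size factors in place of totals put that median at 0.04 and the split at 244 higher and 108 lower. Against mature cells, of 4703 genes 438 were higher (9.31%) and 613 lower (13.0%), with a median of -0.09. Those counts are the background for each gene group below.

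As an order among the groups, the genes of at least 100 CPM that lay 2-fold or more apart between resting and mature cells were taken, a count made after the values were seen. In 245 of the 281 such genes higher in mature cells, the Ccr7-positive Fscn1-low level lay between the other groups, 161 nearer to resting and 84 nearer to mature on the scale of log2(CPM + 1). Among the 181 lower in mature cells, 153 lay between, 126 of them nearer to resting. The median distance covered from resting towards mature was 37.9% for the first set and 28.3% for the second. It did not grow evenly with Ccr7. For genes higher in mature cells the median was 11.4% with 2 to 3 Ccr7 UMIs, 13.8% with 4 to 7 and 56.1% with 8 or more. In the same bins 86, 84 and 12 of the 281 genes lay beyond resting, away from mature. For the genes lower in mature cells the medians of these bins were 14.5%, 16.9% and 49.0%, with 34, 47 and 12 of the 181 beyond resting. The first 2 bins therefore lay close together and near resting, and the cells with 8 or more Ccr7 UMIs about midway. Such sums do not show whether single cells were midway or a mixture of both kinds, so the number of 47 mature dendritic cell genes (a list without Ccr7 and Fscn1) detected per cell at 5000 UMIs was counted as well. That list was drawn up with earlier results of these data known, so the numbers are descriptions. Resting cells had a median of 8 (range 2 to 18), the bins 10 (5 to 17), 11 (6 to 17) and 16 (7 to 29), and mature cells 28 (10 to 35). The top bin spread from resting to mature numbers, with quartiles of 13 and 22, against 25.5 and 30.25 in mature cells.

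Subunits and regulators of NF-kB, the pathway of Relb, were followed first in their promoters, since 6 of 21 measured list genes were called higher against resting cells (background 4.61%) and 0 lower, with a median log2 ratio of 0.81. Sequences upstream of the start sites, from RefSeq (GRCm38.p6), were matched by symbol for 5 of the 6, all but Relb. The kappa B consensus, the motif that NF-kB dimers bind, searched on both strands, occurred within the 250 bases before a start in 4 of the 5 (Nfkb2, Tnip1, Tnip3 and Traf3) and not in Traf1. Of all 32841 promoters in the table, 3.90% held it in a window of that length, and 4.46% of 27018 genes did. A match describes letters and shows neither binding nor use. The 5 genes came from a list of NF-kB genes, and the uncalled genes of that list were not compared. The contrast with all promoters therefore cannot be tied to being higher in these cells. The 100 bases ending at the start site are shown for these 4 genes, 5′ to 3′ along the gene, with the motif in capitals: chr19:46304637-46304736 on the plus strand for the first listed start of Nfkb2, chr11:54962941-54963040 minus for Tnip1, chr6:65590298-65590397 plus for Tnip3 and chr12:111166270-111166369 plus for Traf3.
Nfkb2: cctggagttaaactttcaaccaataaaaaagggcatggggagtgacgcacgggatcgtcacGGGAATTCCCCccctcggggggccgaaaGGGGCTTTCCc
Tnip1: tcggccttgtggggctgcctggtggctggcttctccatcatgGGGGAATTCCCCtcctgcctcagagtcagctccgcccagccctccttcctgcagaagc
Tnip3: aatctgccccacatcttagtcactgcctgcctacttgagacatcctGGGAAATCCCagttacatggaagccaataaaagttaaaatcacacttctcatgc
Traf3: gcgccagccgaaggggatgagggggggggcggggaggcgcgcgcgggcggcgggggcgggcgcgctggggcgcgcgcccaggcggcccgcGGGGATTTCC
Counted from the start site, with -1 the base before it, the last capital is at base -2 in Nfkb2, -1 in Traf3, -47 in Tnip1 and -45 in Tnip3.

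The genes behind those sequences differed in where along Ccr7 they were higher. Nfkb2, precursor of the RelB partner p52, was at 41.5 CPM in resting, 79.4, 97.9 and 99.2 CPM in the 3 Ccr7 bins and 159.9 CPM in mature cells. Tnip1, an A20-binding brake on the pathway, was at 24.7 CPM in resting and 69.6, 67.8 and 74.9 CPM in the bins. Its relative Tnip3 was at 245 CPM in resting and 498 CPM in Ccr7-positive Fscn1-low cells (462, 497 and 522 CPM in the bins), against 301 CPM in mature cells. All 3 were thus already near their full Ccr7-positive Fscn1-low level in cells with 2 to 3 Ccr7 UMIs, where Relb was not. Traf1, an adaptor of TNF receptors, was 2.16-fold (2.02 to 2.31) above resting, and Traf3, which restrains the non-canonical pathway by degrading NIK, 2.59-fold (1.86 to 3.55) above it at no more than 23.9 CPM. Nfkb1 at 351 and 694 CPM, Rel at 387 and 707 CPM and Map3k14 (NIK) at 175 and 342 CPM in resting and Ccr7-positive Fscn1-low cells came just under 2-fold. The inhibitor Nfkbia (1075 against 948 CPM) and the canonical subunit Rela (39.6 against 40.4 CPM) were near resting. Against mature cells 7 of 22 list genes were lower and 0 higher, with Birc2, a ubiquitin ligase of the pathway, 5.60-fold (4.28 to 7.35) below at 44.4 CPM. The list's counts against resting ranged from 5 to 9 genes higher over the other settings tried.

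Chemokines were higher than in resting cells for 5 of 8 measured and lower for 0 (median log2 ratio 2.02), while against mature cells 4 were higher and 1 lower. The background was 4.61% higher and 3.22% lower against resting cells, and 9.31% and 13.0% against mature cells. The summed level of the list was 2988 CPM in resting, 11299.5 in Ccr7-positive Fscn1-low and 15835 CPM in mature cells. The split against mature cells was not stable: it was 3 higher and 3 lower with 3 or more Xcr1 and Clec9a UMIs required, and 2 and 2 with mature cells taken without the Xcr1 and Clec9a gate. Ccl17 and Ccl22, the 2 ligands of CCR4 on regulatory and effector T cells, were the most abundant. Ccl17 was at 1561 CPM in resting, 3650.4, 6111 and 6969 CPM in the Ccr7 bins and 2887 CPM in mature cells. Its level in the Ccr7-positive Fscn1-low cells was 3.70-fold (3.62 to 3.78) above resting and 2.00-fold (1.90 to 2.11) above mature. Ccl22 was at 725 CPM in resting, 1930.5, 2944 and 6734 CPM in the bins and 6112 CPM in mature cells, with the top bin above the mature level. Ccl5, a chemokine that attracts T cells, was nearly all mature: 10.2 CPM in resting, 13.0, 18.8 and 169 CPM in the bins and 5763 CPM in mature cells, 67.9-fold (58.3 to 79.3) above the Ccr7-positive Fscn1-low level. The order of these genes along Ccr7 was thus Ccl17 and Ccl22 from the lowest bin on and Ccl5 in the top bin. Cxcl2, a neutrophil attractant, was called higher at 37.2 CPM, but 51.3% of its UMIs came from 1 cell. The Ccl17 ratio to mature cells lay on the 2-fold limit and stayed 2-fold in 9 of 14 other settings. Its lowest log2 value was 0.41, where 3 or more Xcr1 and Clec9a UMIs were required, which left 16 mature cells.

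The spread over cells was wide. With every cell thinned to 5000 UMIs (30 resting and 3 Ccr7-positive Fscn1-low cells were shallower and left out), the median Ccl17 count was 1 (quartiles 0 to 9) in resting, 23 (4 to 45) in Ccr7-positive Fscn1-low and 3.5 (1 to 18.25) in mature cells. Single resting cells reached 171 Ccl17 UMIs, above the highest Ccr7-positive Fscn1-low cell at 117, so the ranges overlapped throughout. Ccl22 had medians of 1 (0 to 4), 13 (3 to 37) and 17.5 (6 to 25.25). By Ccr7 bin the Ccl17 medians were 7, 29.5 and 29, and the Ccl22 medians 4, 11.5 and 31. At equal depth the bins thus had the order of the summed levels for Ccl22, while the upper 2 bins were level for Ccl17.

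**Figure D2:**
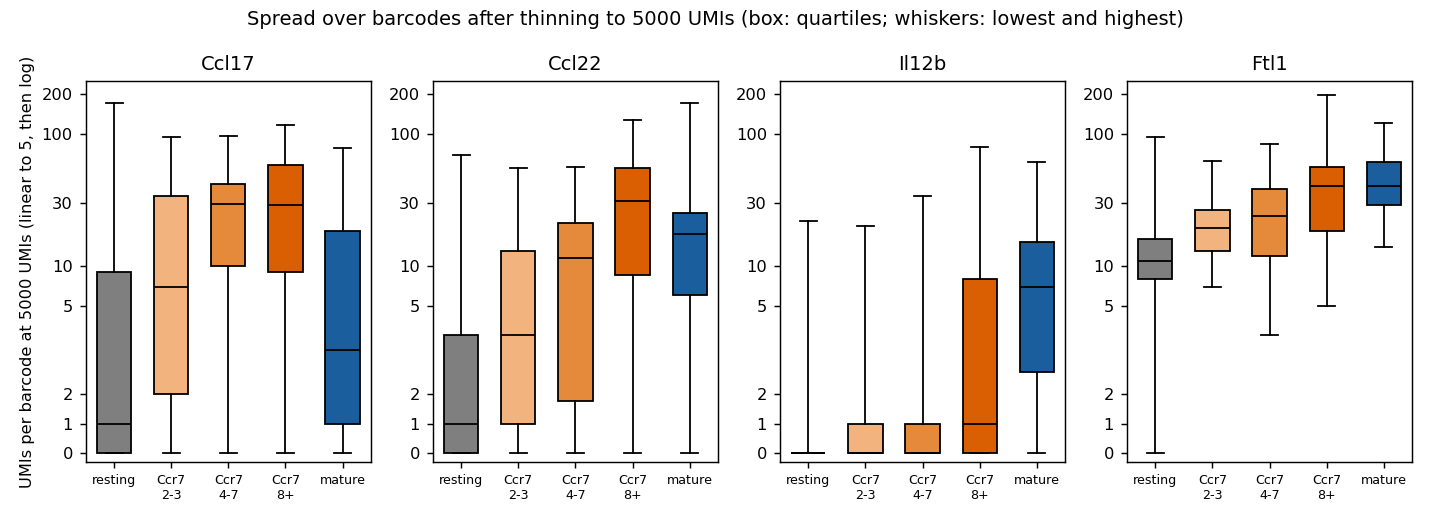
UMIs per cell of Ccl17, Ccl22, Il12b and Ftl1 after thinning to 5000 UMIs (y axis, linear to 5 and logarithmic above) in resting cells, the 3 Ccr7 bins of Ccr7-positive Fscn1-low cells and mature cells (x axis); boxes are quartiles with the median, whiskers the lowest and highest cell. Ccl17 medians are 7, 29.5 and 29 in the bins against 1 in resting and 3.5 in mature cells, and the ranges overlap in all panels.

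Of 7 measured cytokines 1 was called higher than in resting cells and 0 lower (background 4.61% and 3.22%), too few genes to describe the group. The called gene was Il12b, the p40 subunit shared by IL-12 and IL-23. It was at 96.2 CPM in resting, 292, 362 and 1395 CPM in the Ccr7 bins and 2315 CPM in mature cells. The Ccr7-positive Fscn1-low level was 8.40-fold (7.87 to 8.96) above resting. At 5000 UMIs the median Ccr7-positive Fscn1-low cell had 0 Il12b UMIs (quartiles 0 to 3), against 0 (0 to 0) in resting and 7 (2.75 to 15.25) in mature cells, so its UMIs were gathered in part of the cells. Il12a, whose product pairs with p40 to make IL-12, had 0, 1 and 0 UMIs in the resting, Ccr7-positive Fscn1-low and mature groups. Il1b was at 1073, 1384 and 900.2 CPM in the same order.

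Of 15 measured co-stimulation and checkpoint genes 5 were higher than in resting cells and 0 lower (background 4.61% and 3.22%). Cd274 (PD-L1) was at 7.27 CPM in resting, 24.3, 28.3 and 92.9 CPM in the bins and 101 CPM in mature cells. Cd40, which receives T cell help, was at 15.4 CPM in resting, 19.4, 26.4 and 86.5 CPM in the bins and 99.1 CPM in mature cells. Both were near the mature level only in the top bin. Cd80 was at 64.3, 133 and 86.9 CPM and Cd86 at 396, 579 and 308 CPM in resting, Ccr7-positive Fscn1-low and mature cells, so both CD28 ligands were highest in the middle group. Cd83 was near level, at 751, 782 and 954 CPM. Tnfrsf9 (4-1BB) had 0 UMIs in the lower 2 bins and 52.8 CPM in the top one, 30% of its UMIs from 1 cell.

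Of 26 measured cytokine receptor and SOCS genes 9 were called above resting and 1 below (background 4.61% and 3.22%). The share below was thus near that of all measured genes. Il7r was at 2.74 CPM in resting and 8.10, 32.0 and 90.8 CPM in the bins, and Il2rg, the shared gamma chain, at 7.88 and 16.2, 41.4 and 109 CPM. Both stepped up over all bins, reaching 78.2 and 136 CPM in mature cells. Stat5a, which carries the signal of these receptors and of GM-CSF, was at 52.9, 187 and 212 CPM in resting, Ccr7-positive Fscn1-low and mature cells. Socs2, a feedback inhibitor, had 0 UMIs in the lower 2 bins, 28.5 CPM in the top bin and 198 CPM in mature cells.

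The list of mature dendritic cell genes was drawn up with earlier results of these data known, so its counts describe the groups and support nothing further. Of 32 measured, 22 were higher than in resting cells and 0 lower (background 4.61% and 3.22%). Against mature cells 35 of 44 were lower and 0 higher (background 13.0% and 9.31%). Some of the 44 reached 20 CPM only in mature cells, so these could not come out higher. The largest ratios to resting at 100 CPM or more were those of Cd63, a tetraspanin of late endosomes, and Il4i1, a phenylalanine oxidase. Cd63 was at 3.73 CPM in resting, 14.6, 28.3 and 328 CPM in the bins and 963 CPM in mature cells. Il4i1 was at 3.68 CPM in resting, 13.0, 20.7 and 282 CPM in the bins and 575 CPM in mature cells. Tspan3, another tetraspanin, and Samsn1, an adaptor that dampens lymphocyte signals, had the same shape with 221 and 339 CPM in the top bin. The serpin Serpinb9, an inhibitor of granzyme B, was already above resting in the lowest bin (68.0 against 25.4 CPM) and at 242 CPM in the top one. Cacnb3, a calcium channel subunit, had 0 UMIs at Ccr7 2 to 3 and 114 CPM at 8 or more. With 3 or more Xcr1 and Clec9a UMIs required, 17 of 29 list genes were higher than in resting cells, and the log2 ratios of Cd63 and Il4i1 were 3.94 and 3.72 in place of 5.42 and 5.21.

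Some genes of mature cells were far lower in the Ccr7-positive Fscn1-low cells. Apol7c, of the apolipoprotein L family, had 3 UMIs in 144 cells against 130 in 40 mature cells, 158-fold (52.8 to 775) apart. Serpinb1a, an inhibitor of neutrophil proteases, was at 8.59 and 288 CPM, and Irf1, an interferon-regulated transcription factor, at 7.16 and 169 CPM in Ccr7-positive Fscn1-low and mature cells, with Irf1 at 10.1 CPM in resting cells. Of the class I presentation genes 0 of 30 were higher and 10 lower than in mature cells (background 9.31% and 13.0%). B2m was at 1356 against 3114 CPM and H2-K1 at 1377 against 2801 CPM. In cholesterol and fatty acid synthesis 0 of 8 were called against resting, while 9 of 13 were lower than in mature cells (background 13.0%). The 2 counts cover different genes. Some of the 13 reached 20 CPM only in mature cells, so these could not come out higher in the Ccr7-positive Fscn1-low cells. Actb was at 11311, 11608 and 21569.8 CPM in resting, Ccr7-positive Fscn1-low and mature cells, close to resting and below mature.

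**Figure D3:**
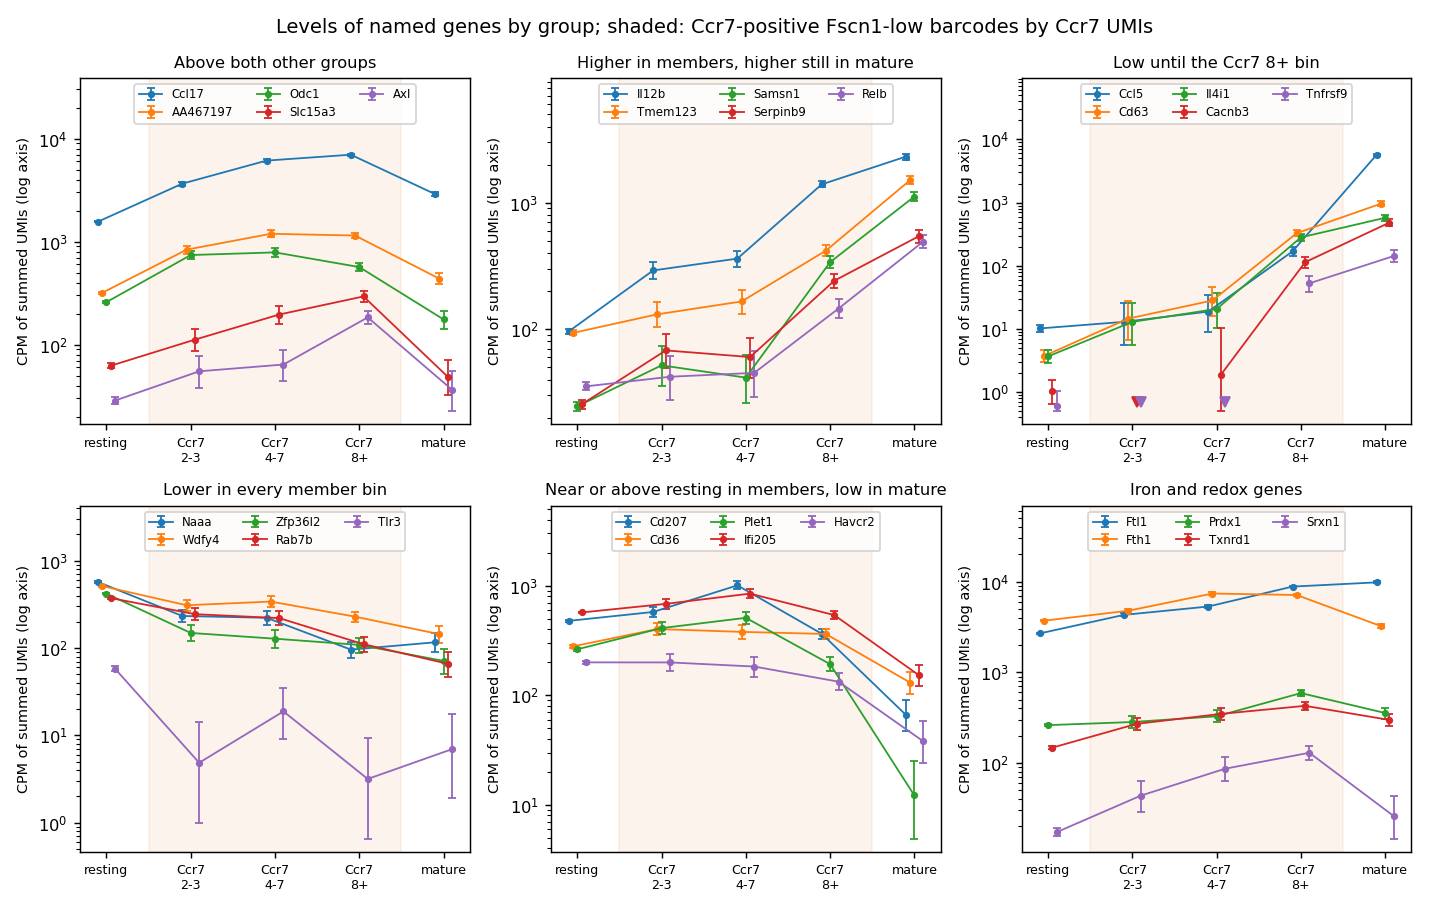
CPM of 30 named genes (log axis) in resting cells, in Ccr7-positive Fscn1-low cells divided by Ccr7 UMIs (shaded) and in mature cells; bars are exact 95% Poisson intervals and triangles at the bottom mark 0 UMIs. Ccl17, Slc15a3 and Axl are highest within the shaded bins, Cd63, Il4i1 and Ccl5 are low until 8 or more Ccr7 UMIs, Naaa and Zfp36l2 are below resting in every bin, and Cd207 and Plet1 are low in mature cells.

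Another set of genes was higher in the Ccr7-positive Fscn1-low cells than in both other groups. By the smaller of the 2 ratios, at 100 CPM or more, the leading genes were Slc15a3, Mgl2, Axl, Odc1, AA467197, Lrrc32, Frmd4b, Ifitm2, Ccl17 and Sdcbp2. Slc15a3, a lysosomal transporter of bacterial peptides, was at 62.3 CPM in resting, 112, 196 and 293 CPM in the bins and 48.7 CPM in mature cells. Axl, a receptor for Gas6-coated dying cells, was at 28.6 CPM in resting, 55.1, 64.0 and 184 CPM in the bins and 36.5 CPM in mature cells, so the highest bin adjoined a low mature level. Odc1, the first enzyme of polyamine synthesis, was highest in the lower bins at 740.1, 785 and 566 CPM, against 258 in resting and 176 CPM in mature cells. AA467197, a small protein of mitochondria, was at 318, 1064 and 436 CPM in resting, Ccr7-positive Fscn1-low and mature cells. Lrrc32 (GARP), which tethers latent TGF-beta to the cell surface, was at 37.2, 105 and 43.4 CPM. For the lectin Mgl2, 22.7% of the Ccr7-positive Fscn1-low UMIs came from 1 cell; without the cells that carried cDC2 or B cell markers its log2 ratio to resting was 1.07 in place of 1.74. Against mature cells, the ratios of Ccl17, AA467197 and Mgl2 came below 2-fold when 3 or more Xcr1 and Clec9a UMIs were required.

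Iron and redox genes belonged to this pattern in part. Of 13 measured, 6 were higher than in resting cells and 0 lower (median log2 ratio 0.81), and 3 were higher than in mature cells and 0 lower. The background was 4.61% higher against resting and 9.31% higher against mature cells. The ferritin light chain Ftl1 was at 2687 CPM in resting, 4306, 5322 and 8829 CPM in the bins and 9834 CPM in mature cells. The heavy chain Fth1 was at 3714 CPM in resting, 4783, 7405 and 7132 CPM in the bins and 3234 CPM in mature cells. The 2 ferritin chains thus parted, the light chain highest in mature cells and the heavy chain in the Ccr7-positive Fscn1-low cells. Srxn1, which repairs oxidised peroxiredoxins, was at 17.3, 93.5 and 26.1 CPM, and Txnrd1, thioredoxin reductase, at 148, 361 and 299 CPM in resting, Ccr7-positive Fscn1-low and mature cells. Hmox1, which degrades heme, was at 20.1 and 69.7 CPM in resting and Ccr7-positive Fscn1-low cells, with 0 UMIs in mature cells. With a floor of 3 counts standing in for mature cells, the Ccr7-positive Fscn1-low level was 13.4-fold higher, a value set by that floor. Of the Hmox1 UMIs in the Ccr7-positive Fscn1-low cells, 21.2% came from 1 cell.

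Part of the cDC1 identity genes were lower than in resting cells. Of 15 measured identity genes outside the rule 5 were lower and 0 higher (background 3.22% lower), with a median log2 ratio of -0.61, while 7 of 14 were higher than in mature cells and 0 lower. Naaa, an amidase of N-acylethanolamines in lysosomes, was at 571 CPM in resting, 233, 222 and 96.0 CPM in the bins and 116 CPM in mature cells. Its median at 5000 UMIs was 2 (quartiles 1 to 4) in resting and 0 (0 to 1) in Ccr7-positive Fscn1-low cells. Tlr3, the sensor of double-stranded RNA, was at 58.2 CPM in resting, and 16 UMIs in the 144 cells gave 7.63 CPM, 7.63-fold (4.68 to 13.4) below resting. The Tlr3 values of the bins were 4.86, 18.8 and 3.17 CPM, all far under resting. Tlr3 was the 1 of 9 measured Toll-like receptor and sensing genes called lower, with 0 higher (background 3.22% and 4.61%). Wdfy4, needed for cross-presentation of cell-bound antigen, was at 513, 281 and 144 CPM, and Rab7b, an endosomal GTPase, at 374, 178 and 66.0 CPM. The lineage transcription factors were near level, with Irf8 at 1138, 983 and 1009.7 CPM and Batf3 at 66.4, 59.6 and 116 CPM. Requiring 3 or more Xcr1 and Clec9a UMIs left 2 of 15 identity genes lower, and size factors left 3.

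Further genes lower than in resting cells were spread over several functions. Zfp36l2, which speeds the decay of AU-rich transcripts, was at 419.7 CPM in resting and 149, 128 and 109 CPM in the bins. Ccr2, the receptor by which precursors enter tissue, was at 158, 56.3 and 15.6 CPM in resting, Ccr7-positive Fscn1-low and mature cells, the one chemokine receptor of 4 called. The retrotransposon-derived pair Rtl8a and Rtl8b was 2.97-fold (2.54 to 3.48) and 4.09-fold (3.12 to 5.46) below resting. Egr1, an immediate early gene, was at 84.2, 11.9 and 10.4 CPM, and the stress chaperone Hspa1a at 665, 174 and 292 CPM. Immediate early and heat shock genes also respond to digestion and handling. Of these lists 2 of 20 and 2 of 10 were called lower and none higher (background 3.22% lower). Fos was at 712 and 405 CPM in resting and Ccr7-positive Fscn1-low cells. The part of these genes in the other differences was not tested. March1, the ligase that turns over surface MHC class II, was at 29.3 CPM in resting and 4.29 CPM, with 9 UMIs, in Ccr7-positive Fscn1-low cells. H2-Ab1, by contrast, was at 11342, 12516 and 5721 CPM in the 3 groups.

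Uptake genes separated these cells from mature ones rather than from resting ones. Against mature cells 9 of 14 were higher and 0 lower (background 9.31% higher), with a median log2 ratio of 1.54; against resting 2 were higher and 0 lower. Cd207 (langerin), a lectin of lung and skin cDC1, was at 477 CPM in resting, 575, 1006 and 364 CPM in the bins and 66.0 CPM in mature cells. Timd4, a phosphatidylserine receptor, was at 315, 519 and 159.9 CPM, and Havcr2 (TIM-3) at 199, 165 and 38.2 CPM in resting, Ccr7-positive Fscn1-low and mature cells. Plet1, a lipid-anchored surface protein, was at 262 CPM in resting, 409.7, 509 and 192 CPM in the bins and 12.2 CPM in mature cells. The summed level of Cd207 and Plet1 was thus highest at 4 to 7 Ccr7 UMIs. With cells thinned to 5000 UMIs, the median Cd207 count was 0 in resting cells and 0.5, 1.5 and 0 in the bins. The Plet1 median was 0 in resting cells and in every bin. A Plet1 UMI was found in 42.5% of cells with 4 to 7 Ccr7 UMIs, against 31.4% of resting cells. The Plet1 peak was thus carried by part of the cells. Ly75 (DEC-205), an uptake receptor that matures with the cell, was instead highest in mature cells. It was at 54.0, 211 and 337 CPM in resting, Ccr7-positive Fscn1-low and mature cells. Where 3 or more Xcr1 and Clec9a UMIs were required, 6 of 14 uptake genes were higher and 2 lower than in mature cells.

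**Figure D4:**
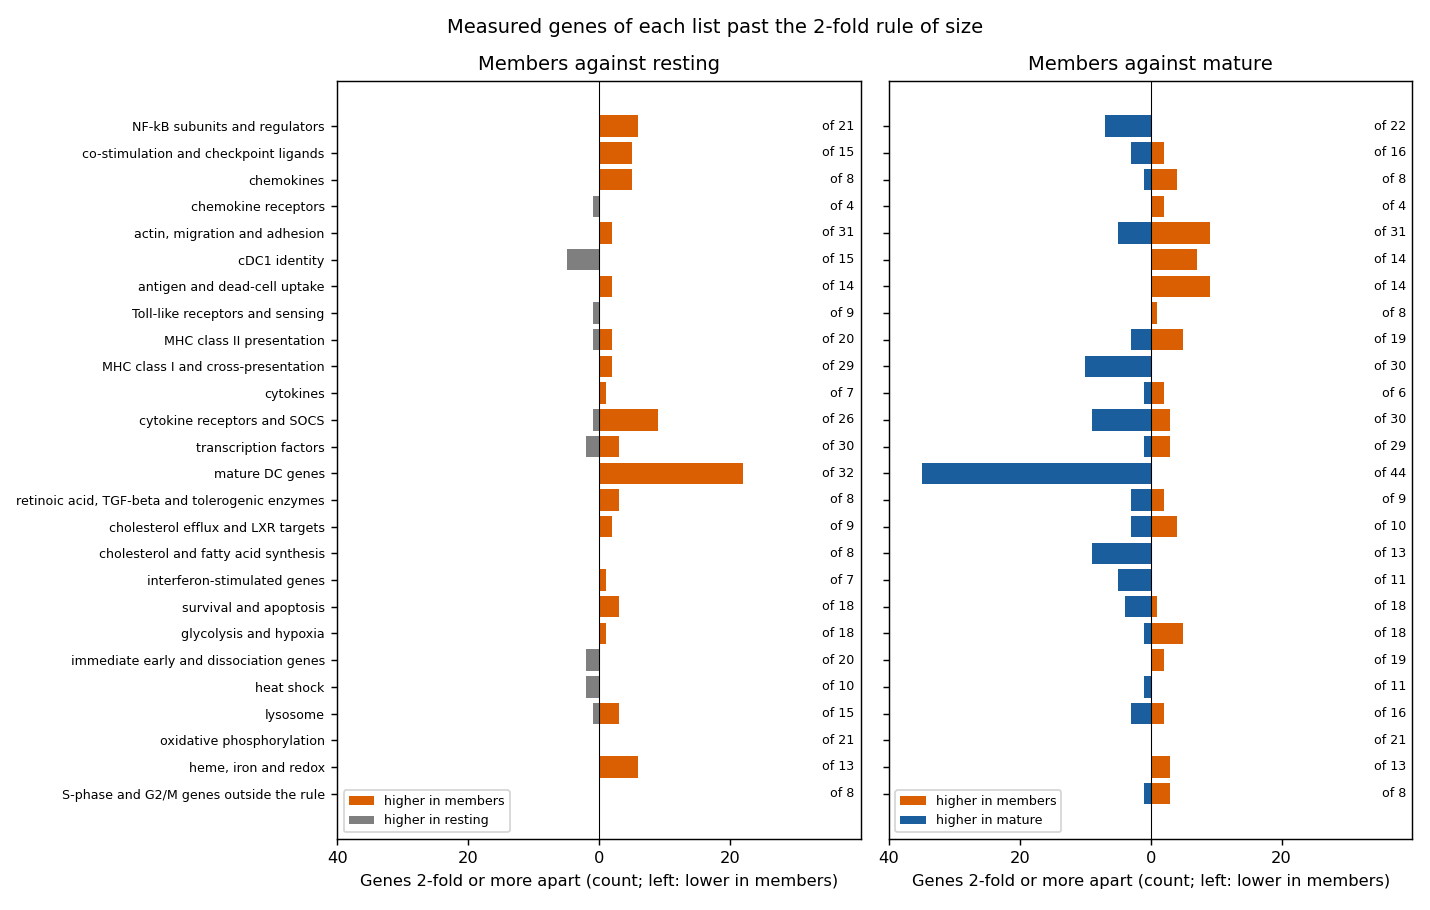
Number of measured genes in each of 26 lists that were 2-fold or more higher (right of 0) or lower (left of 0) in Ccr7-positive Fscn1-low cells than in resting cells (left panel) and mature cells (right panel), with the number measured at the edge. The mature dendritic cell list has 22 of 32 higher than resting and 35 of 44 lower than mature, while the uptake list has 2 of 14 and 9 of 14 higher.

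Against resting cells 3 of 30 measured transcription factors were higher and 2 lower, and 3 of 18 survival and apoptosis genes were higher and 0 lower. The background was 4.61% higher and 3.22% lower. Nr4a3, an orphan nuclear receptor needed for dendritic cell migration, was at 335 CPM in resting, 469.7, 706 and 1331 CPM in the bins and 1100.0 CPM in mature cells, one of 3 transcription factors of 30 called higher. Irf4, known for driving migration of cDC2, was at 7.27, 21.9 and 13.9 CPM. Basp1, a membrane protein that organises cortical actin, was at 871, 1942 and 2511 CPM. Apart from Cd63 it was the only one of 31 actin, migration and adhesion genes called higher than in resting cells. That is 2 of 31, against 4.61% of all measured genes. The anti-apoptotic Bcl2a1d was at 1194, 2110.4 and 1576 CPM, and its opponent Bcl2l11 (BIM) at 22.8, 48.7 and 50.4 CPM. Of 21 oxidative phosphorylation genes 0 were called in either comparison. The background was 4.61% higher and 3.22% lower against resting cells, and 9.31% and 13.0% against mature cells.

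The limits of the rule were checked on cells just outside it. The 112 cells with 1 Ccr7 UMI had Ccl17 at 2194 CPM, Ccl22 at 1080.2 CPM, Il12b at 111 CPM and Naaa at 511 CPM. Each value lay between the resting level and that of the cells with 2 to 3 Ccr7 UMIs. The 6 cells with 1 or 2 Fscn1 UMIs, at the other edge, had 11 to 53 Ccr7 UMIs and a summed level of the mature gene list of 22665 CPM, against 13049 CPM in the cells with none and 38176 CPM in mature cells.

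Markers of other cell types were low but not absent. The 8 cDC2 markers summed to 74.1 CPM in resting, 195 CPM in Ccr7-positive Fscn1-low and 48.7 CPM in mature cells, with all 8 detected in the first 2 groups and 5 at 0 in mature cells. In the cells with 8 or more Ccr7 UMIs the sum was 323 CPM, and in the 6 cells with Fscn1 UMIs 1368 CPM. Of the Cd209a UMIs 84.4% came from 1 cell. The part of such cells in the results was tested for the counts: without cells carrying 2 or more UMIs of chosen cDC2 or B cell markers, 201 genes were higher and 157 lower than in resting cells. B cell markers summed to 61.0, 63.9 and 24.3 CPM in resting, Ccr7-positive Fscn1-low and mature cells, and to 30.8, 154 and 34.8 CPM in the 3 Ccr7 bins. In the same group order, monocyte markers (7 genes, 2, 2 and 4 at 0) summed to 209.6, 110.2 and 19.1 CPM. Plasmacytoid dendritic cell markers summed to 169, 152 and 169 CPM, and epithelial markers to 219, 167 and 118 CPM. T cell and NK cell markers summed to 1.60 to 6.95 CPM. Of the 6 barcodes found in both libraries 1 was among the 144; without those barcodes 206 genes were higher and 146 lower.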

How the data were processed

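Both libraries used 10x Chromium v3.1 chemistry, which tags 3' ends. What the authors deposited are unnormalised UMI counts for each gene in each barcode, from Cell Ranger on mm10. Its version is 3.2 per the submitters' processing notes and 3.0.2 per the file headers.

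Only the cDC1 library entered the comparisons; the cDC2 library served to count shared barcodes. Counts were summed over the cells of each group with Python 3.11.15, numpy 2.4.6 and scipy 1.17.1, scaled to CPM, and given exact Poisson intervals; ratios have exact conditional binomial intervals at the 95% level, which cover counting error only. Where 1 group had no UMI of a gene, a floor of 3 counts in that group stood in. Called means 2-fold at 20 CPM or more in either group. The calculation was checked on simulated data. No doublet caller was run. Coordinates are from GENCODE vM21 (GRCm38, the assembly of mm10).

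The cells and the gene lists were chosen with earlier results of these data known. Named genes are, per comparison, the 12 largest ratios in each direction at 100 CPM or more, the 10 genes highest above both groups, and for each list at most 4 by ratio and 2 by level. Nfkb1, Map3k14, Rela, Il12a, Cd80, B2m, H2-Ab1, Txnrd1, Batf3 and Cd209a were named after their values were seen. Alternatives changed the limits of the rule, the depth, the scaling and the filters 1 at a time.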

Additional observations from a re-analysis of the deposited data

How the results depend on the processing

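Over 14 other settings, 12 of them planned, the counts of genes 2-fold apart moved by more than 1.5 times under few. A filter of 50 CPM gave 112 genes higher and 54 lower than in resting cells, and 216 higher and 321 lower than in mature cells, since fewer genes were tested. No CPM filter gave 1276 and 1089 against resting and 1091 and 1636 against mature cells. Thinning each cell to 5000 UMIs and applying the rule to the thinned counts, which left 75 Ccr7-positive Fscn1-low cells, gave 368 higher and 474 lower than in resting cells and 1056 lower than in mature cells. Excluding every cell with a proliferation UMI, which left 68, gave 240 lower than in resting cells. Other counts stayed within 1.5 times. Of 209 ratios of named genes past 2-fold, 179 to 209 were still 2-fold apart in each setting. A ratio can stay past 2-fold and still change in size. Under thinning with the rule on thinned counts, 245 gene ratios were counted as moved and 195 as the same. With 3 or more Xcr1 and Clec9a UMIs 158 were counted as moved, and without any proliferation UMI 142. Direction turned for 3 ratios to mature cells that had been called higher: Il1a and Lipa, at log2 ratios of 1.04 and 1.07, were at -0.034 each with 3 or more Xcr1 and Clec9a UMIs, and Ccl6, at 1.475, was at -0.0025 with mature cells taken without that gate; the cause was not tested. Leaving out cells with other cell type markers and taking mature cells without the gate were added after the data were seen. No paired analysis was possible because each sort is 1 library. Depth limits the mature group most, with 575434 UMIs in 40 cells.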
